A study of Hydra viridissima with 2 samples.

Results

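The giant coding genes of the green hydra *Hydra viridissima* were taken as the gene models with a coding length of at least 10000 nt and a mean of at least 1 CPM over both libraries, where CPM is a library's counts scaled to a common total. There were 119 of them among 34573 gene models. The length minimum alone chose them, because all 119 models of that length passed the CPM minimum and the lowest mean among them was 7.15 CPM. They are 0.736% of the 16162 models that passed the CPM minimum, which are called tested genes here.

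Genes of this size are known from other animals to encode very long proteins, among them muscle and cytoskeletal scaffolds, dynein motors, cadherins, extracellular matrix proteins and ubiquitin ligases. Many such proteins are strings of repeated domains. An exon whose length is a multiple of 3 can be added, lost or copied without shifting the reading frame. The deposited table does not pair its identifiers with gene names, so no protein is assigned to any gene below and each gene is given by its scaffold and position.

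Green hydra is a freshwater polyp whose digestive epithelial cells house green algae. Total RNA of whole polyps was sequenced in 1 library of aposymbiotic animals, which lack the algae, and 1 library of green, symbiotic animals. Counted read pairs came to 5533508 for the aposymbiotic and 6905650 for the symbiotic animals. Since each condition has 1 library, nothing was tested or checked against replicates. Every difference below is one between these libraries, given with a 95% interval that covers counting error only. Both libraries came from clone 2, kept at 24 °C on brine shrimp and harvested 2 to 3 days after the last meal. About 200 large polyps were pooled for each, the RNA integrity number was 10 in both, and ribosomal RNA was removed enzymatically. The results therefore concern 1 clone and 1 pool of animals per condition, without markers that could check the cell types present. For the molecule, GEO's field gives polyA RNA and the protocol total RNA, and the latter was taken as right.

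Most giant genes were split into many exons. Overlapping exon entries of a gene were merged, and the giant genes then had 1 to 110 exons with a median of 51, against a median of 4 in the 16043 other tested genes. At least 50 exons were found in 64 of the 119 giant genes and in 54 of the other tested genes. At least 80 exons were found in 23 giant genes and 2 others, and at least 100 in 3 giant genes and no other. Coding length, by which the giant genes were chosen, ran from 10038 to 49516 nt with a median of 12888 nt. The other tested genes had a median of 1170 nt. Exon numbers were not compared at equal length, so how far they go with length alone was not tested. The distance from the first to the last coding base had a median of 39037 bp, and 26 giant genes covered at least 50000 bp. The mean intron of a giant gene had a median of 489 bp, close to the 497 bp of the other tested genes, so the wide spans went with the number of introns. The genes lay on 19 scaffolds. Scaffold 2 held 20 of them, 16.8%, where it holds 10.2% of all tested genes.

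The gene with most exons lay on scaffold 2 from 15011096 to 15055657. Its 110 exons made up only 10635 nt. Next by exon number were genes with 104 exons in 20592 nt (scaffold 3, 2257256 to 2307066, minus strand) and with 103 exons in 24213 nt (scaffold 2, 16374341 to 16559850, plus strand). A gene of 99 exons lay on scaffold 10 (13226479 to 13276426) and one of 93 on scaffold 9 (1722006 to 1780056).

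A smaller class of giant genes was built around a single very long exon. In 19 genes at least 50% of the coding length lay in the longest exon, and 11 genes had 10 exons or fewer. An exon of at least 5000 nt was present in 30 giant genes. The longest made up 36456 of the 36825 nt of a gene with 4 exons (scaffold 2, 4454339 to 4493375). A gene of 39702 nt on the same scaffold (6416633 to 6475332) had an exon of 26403 nt among its 23. The longest gene of all, 49516 nt on scaffold 2 (3151324 to 3231883), combined an exon of 19170 nt with 75 shorter ones, 76 in all. The 2-exon gene on scaffold 3 (15282772 to 15298827) held 14801 of its 14949 nt in a single exon. The gene on scaffold 6 from 7317527 to 7328623 was the only giant gene with a single merged exon. Its 3 exon entries share their end and differ in their start.

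**Figure D1:**
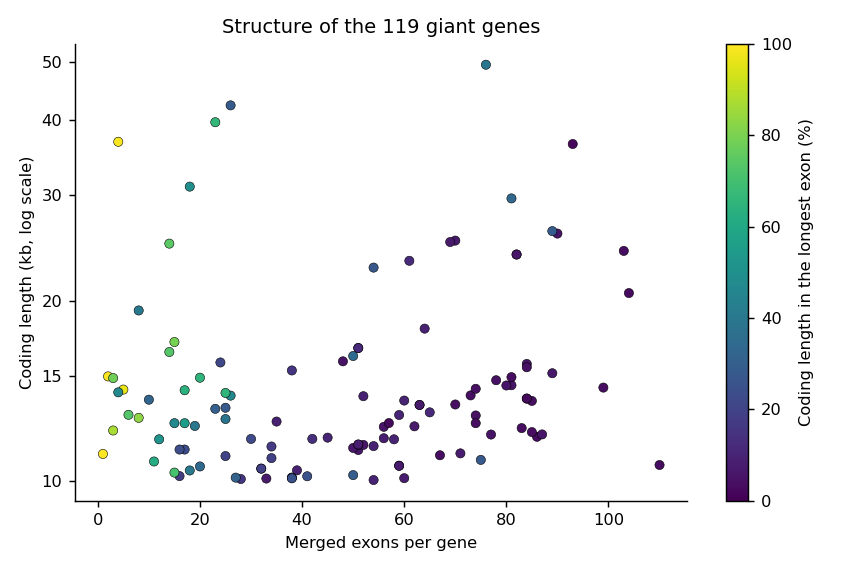
Each point is 1 of the 119 giant genes, with its number of merged exons on the x axis, its coding length in kb on a log y axis and the share of coding length in its longest exon as colour. Most of the 11 genes of 10 exons or fewer, at the left, hold over 50% of their length in a single exon, and the 64 genes of 50 exons or more spread to the right up to 110 exons.

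Exon lengths within the giant genes leaned towards multiples of 3. Of their 5512 inner exons, meaning all but the first and last of a gene, 48.7% had such a length, against 41.7% of the 87119 inner exons of the other tested genes. Exon entries of a gene that overlap or are identical were merged here. In the 77 giant genes that had none the share was 46.1%, against 41.4% in other genes without them. Such entries were present in 42 giant genes, 35.3%, and in 14.2% of the other tested genes. Entries that repeat an identical exon count here too, so these shares do not measure alternative exon boundaries. Genes of equal exon number were not compared in this. Inner exons were also longer, with a median of 172 nt against 108 nt. Among genes with at least 10 inner exons, 14 of 107 giant genes (13.1%) and 189 of 3285 others (5.75%) had at least 70% of them at a multiple of 3. The 93-exon gene on scaffold 9 (1722006 to 1780056) stood highest among these giant genes, at 93.4%.

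Some giant genes repeated 1 exon length many times. An exact length that occurred at least 5 times within the gene was found in 10 giant genes, 8.40%, and in 87 other tested genes, 0.542%. More exons give more chances of a recurring length, and among genes of at least 50 exons the counts were 8 of 64 giant genes and 9 of 54 others. The recurring length was a multiple of 3 in 8 of the 10 giant genes, and this was not counted in the 87 others. A gene of 57 exons on scaffold 11 (8369624 to 8424107) had 12 exons of 255 nt, and 89.1% of its inner exons were multiples of 3. A gene of 54 exons on scaffold 3 (2174862 to 2230842) had 11 exons of 123 nt. On scaffold 11 (8894162 to 8955532), a 90-exon gene had 10 exons of 291 nt, and the 93-exon gene on scaffold 9 had 9 of 207 nt. These 4 lengths keep the reading frame. The exceptions were 15 exons of 73 nt in a 33-exon gene on scaffold 14 (7241021 to 7261710), where only 3.23% of inner exons were multiples of 3, and 10 exons of 91 nt in the 104-exon gene on scaffold 3. Equal length was the sole criterion, since no exon sequence was used.

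The giant genes were expressed at ordinary levels per length, and their large counts went with their length. The median level, the mean of both libraries, was 18.2 CPM per kb of coding length, against 13.7 CPM per kb in the other tested genes. None of the 119 was among the 100 genes of highest level per kb, which is near their share of 0.736% of tested genes. In the top 10% of tested genes were 14 of the 119, also near that percentage. By CPM, which grows with length, 101 giant genes (84.9%) reached 100 CPM, against 11.8% of the others, and 4 were among the 10 genes of most counts. Together the giant genes took 7.26% of aposymbiotic counts (95% Clopper-Pearson interval 7.24 to 7.28) and 7.75% of symbiotic counts (7.73 to 7.77). Their share of the coding length of tested genes was 6.91%.

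A gene with 17 exons (scaffold 1, 28211651 to 28228364, 12489 nt) had the highest level, 565 CPM per kb without algae and 618 CPM per kb with them. Genes with 14 exons each followed, at 444 and 566 CPM per kb (scaffold 13, 1663446 to 1684324, 16419 nt) and at 284 and 355 CPM per kb (scaffold 10, 16648140 to 16680312, 24900 nt). The 104-exon gene on scaffold 3 had 234 and 260 CPM per kb. Of the giant genes' counts these 4 took 36.5% in the aposymbiotic and 39.9% in the symbiotic polyps, and without them the giant genes took 4.61% and 4.66% of all counts. Next in order came genes on scaffold 2 (11782392 to 11809147, 148 CPM per kb as the mean of both libraries), scaffold 3 (15282772 to 15298827, 132), scaffold 8 (770976 to 810207, 106) and scaffold 7 (17940863 to 17980009, 104). The 8 highest genes had from 2 to 104 exons, so high levels were found in both architectures. At the other end stood a gene with 32 exons (scaffold 44, 43876 to 67168), with 31 aposymbiotic and 60 symbiotic counts and a mean of 0.683 CPM per kb.

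**Figure D2:**
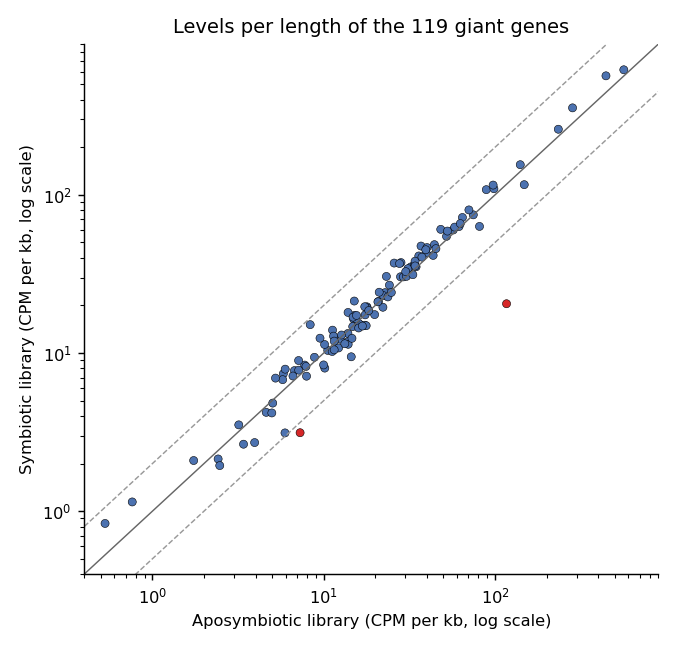
Levels of the 119 giant genes in CPM per kb of coding length, aposymbiotic on the x axis and symbiotic on the y axis, both on log scales. The solid line marks equality and the dashed lines 2-fold differences, and the 2 red points are the genes on scaffolds 6 and 4 that lie below the lower dashed line.

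Between polyps with and without algae the giant genes differed little, and most of them stood slightly higher in the symbiotic library. On the log2 scale, the ratio of their symbiotic to their aposymbiotic CPM had a median of 0.09 over the 119 genes and 0.01 over all tested genes. It was above 0 in 79 of the 119, 66.4%, against 51.9% of all tested genes. The next shorter class, the 439 tested genes from 5000 nt up to the 10000 nt limit, was close to the giant genes, with a median of 0.08 and 65.1% above 0. No giant gene was 2-fold or more higher with a counting interval above equality, where 0.947% of all tested genes were. Lower by 2-fold or more were 2 giant genes, 1.68%, against 1.42% of all tested genes, so at that fold their share was near the background. Whole polyps were sequenced, so fewer cells of a type and less RNA per cell cannot be told apart in any of these ratios.

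A smaller limit was also used, since the counts behind these genes are large. Higher by at least 25%, with an interval above equality, were 18 giant genes, 15.1%, against 5.74% of all tested genes and 13.4% of the 439 genes of the next shorter class. Lower by at least 20%, which is the same limit in the other direction, were 10, 8.40%, against 4.96% and 3.19%. By the ratio alone, with no interval required, the other 91, 76.5%, lay within these limits, as did 68.4% of the other tested genes. Those had a median of 191 counts over both libraries, against 3479 in the giant genes, and ratios from few counts scatter more. With the interval required, 5.67% of the other tested genes were higher and 4.93% lower. Below, "higher" and "lower" counts of giant genes use these limits of 25% and 20%. Small differences are called more readily at high counts. Among genes with at least 1000 counts over both libraries, 14 of 102 giant genes (13.7%) were higher, against 6.12% of the 2534 tested genes of that depth, and 5 (4.90%) were lower, against 3.39%. At 2-fold and that depth, 0.0395% of tested genes were higher and 0.552% lower, against 0 and 1 of the giant genes. Around the median, log2 ratios had a robust standard deviation of 0.149 in the 102 giant genes and 0.161 in all 2534, and the counting intervals of abundant genes do not cover it. The limits of 25% and 20% lie at 0.32 and -0.32 on the log2 scale.

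**Figure D3:**
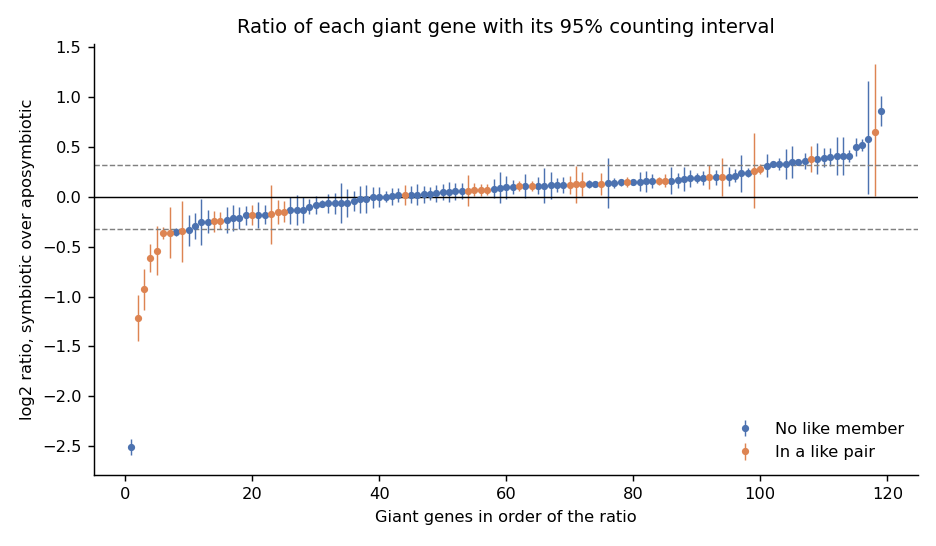
The 119 giant genes in order of their log2 ratio of CPM, symbiotic over aposymbiotic, with bars for the 95% counting interval and dashed lines at 25% higher and 20% lower. Genes in orange have another giant gene of like exon structure, and most points lie between the dashed lines, with the scaffold 6 gene alone at -2.51.

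The giant gene that differed most was the single-exon gene on scaffold 6 (7317527 to 7328623, plus strand, 11097 nt, identifier cHydvir-v1B3C1_g27168). Its counts were 7239 without algae and 1556 with algae. Its log2 ratio was -2.51 (95% counting interval -2.59 to -2.43), lower in the symbiotic library and far from the next giant gene. The model that follows it 395 bp downstream on the same strand, 987 nt long, went the same way, with a log2 ratio of -3.26 (-3.53 to -3.02).

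The other giant gene past 2-fold lay on scaffold 4 (13845188 to 13886508, plus strand, 16 exons, 11286 nt, identifier cHydvir-v1B3C1_g22776). Its counts were 459 without and 242 with algae, and its log2 ratio was -1.21 (-1.45 to -0.99). It sits inside an intron of another giant gene, on the opposite strand. That host gene (13722609 to 14018275, minus strand, 17 exons) has the same coding length of 11286 nt and spans 295667 bp, of which a single intron takes 248962 bp and the next longest intron 10202 bp. The host, at 913 and 731 counts, had a ratio of -0.61 on the log2 scale (-0.76 to -0.47). In order, 15 exons of host and nested gene are equal in length. Another gene of like structure lies further along the scaffold (14150173 to 14189211, 16 exons), and at 4622 and 4404 counts its log2 ratio was -0.36 (-0.42 to -0.30). All 3 genes were thus lower in the symbiotic library, by unequal amounts. No exon of a giant gene overlaps an exon of another model. The counts carry no strand, so reads from the host's intron and from the nested gene's exons within it cannot be told apart.

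Among the other lower genes, one with 78 exons (scaffold 15, 9495237 to 9563575) stood at a log2 ratio of -0.93 (-1.14 to -0.72), from 489 aposymbiotic and 315 symbiotic counts. One with 84 exons on that scaffold (7376803 to 7444061) stood at -0.54 (-0.79 to -0.30), from 303 and 255 counts. The 2-exon gene of scaffold 3 stood at -0.35 (-0.39 to -0.32), from 12374 and 11868 counts, and one with 85 exons (scaffold 7, 1915981 to 1960993) at -0.34 (-0.49 to -0.18), from 684 and 663. The symbiotic library is the deeper of the pair, so near-equal counts mean a lower share there.

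In the other direction the largest difference belonged to a gene with 12 exons (scaffold 7, 11271118 to 11287204, plus strand, 11739 nt, identifier cHydvir-v1B3C1_g29696). From 547 aposymbiotic and 1214 symbiotic counts, its log2 ratio of 0.86 (0.71 to 1.01) fell short of 2-fold. The gene with 103 exons on scaffold 2 (identifier cHydvir-v1B3C1_g17136), which spans 185510 bp, stood at 0.52 (0.46 to 0.58), from 3488 and 6138 counts. The intervals of both lay wholly past the 25% limit, which holds for 5 of the 18 higher genes in all, and for 4 of the 10 lower ones with the 20% limit. The next gene (scaffold 14, 6749791 to 6771650, 8 exons) stood at 0.50 (0.41 to 0.59), from 1623 and 2809 counts. Genes with 61 exons (scaffold 12, 5152932 to 5187415, 3609 and 5867 counts) and 18 exons (scaffold 1, 12599723 to 12617481, 1351 and 2173 counts) stood at 0.41 (0.35 to 0.47) and 0.39 (0.29 to 0.49). Both many-exon and few-exon genes were thus among the higher ones.

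The 4 giant genes of most counts all stood above 0. That of scaffold 13 from 1663446 stood at 0.35 (0.33 to 0.37), from 40767 and 63590 counts, and that of scaffold 10 from 16648140 at 0.32 (0.31 to 0.34), from 39454 and 60487. The scaffold 1 gene from 28211651 and the 104-exon gene on scaffold 3 stood at 0.13 and 0.15. The log2 ratios of the 5 longest genes ran from -0.13 for the gene with the 36456 nt exon (950 and 1062 counts) to 0.16 for one of 42360 nt with 26 exons (scaffold 5, 14744474 to 14792149, 2701 and 3705 counts).

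Ratios moved more with intron content than with coding length inside the group. Across the 119 genes, Spearman's rho with the log2 ratio was -0.36 for the summed intron length, -0.35 for the span, -0.21 for the exon number and -0.10 for the coding length. These are descriptions across genes of the same libraries, and the genes are not independent. Among 424 multi-exon genes from 5000 nt up to the 10000 nt limit, rho for the summed intron length was -0.26. Of all tested genes 5.74% were higher and 4.96% lower by the smaller limits, and these were not counted by intron length. The 37 giant genes with under 15000 bp of intron had a median log2 ratio of 0.16, and 14 were higher and 2 lower by the smaller limits. The 42 genes between 15000 and 30000 bp had a median of 0.11, with 3 higher and 2 lower. The 40 with at least 30000 bp had a median of 0.02, with 1 higher and 6 lower. These 6 are not separate cases. They include the host and nested gene of scaffold 4, and 2 genes on scaffolds 10 and 15 with equal exon lengths throughout. Without the 33 genes that have a like partner, described next, rho for the summed intron length was -0.23 over the remaining 86. With the 18 genes under 100 CPM left out it was -0.28 over 101.

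The lean towards the symbiotic library differed between ranges of expression. Giant genes of 300 to under 1000 CPM had a median log2 ratio of 0.11 with 87.5% of 40 above 0, and those of at least 1000 CPM one of 0.15 with 85.7% of 14. The 47 genes of 100 to under 300 CPM had a median of -0.01 with 46.8% above 0. The 18 under 100 CPM spread widest, with quartiles of -0.32 and 0.26 around a median of 0.12. Genes from 5000 nt up to the limit had medians of 0.12 (n = 181), 0.06 (n = 176), 0.03 (n = 72) and 0.18 (n = 10) from the lowest to the highest range. Above 0 in that shorter class were 68.5%, 64.2%, 54.2% and 100%, in the same order. Against it, the giant genes had a higher median only in the range of 300 to under 1000 CPM. In 3 of the 4 ranges the giant genes had a higher median than genes under 1000 nt, and in the range of 100 to under 300 CPM they had a lower one.

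**Figure D4:**
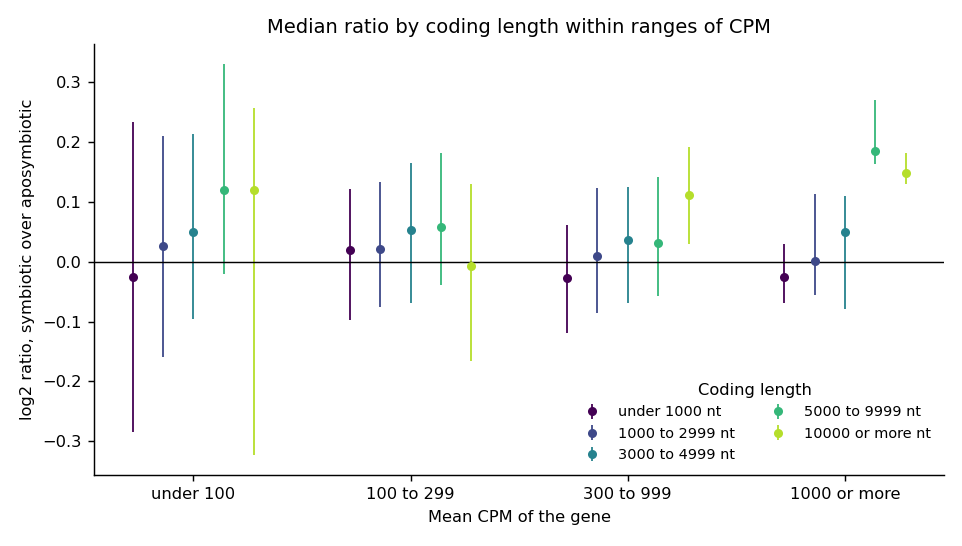
Median log2 ratio of CPM, symbiotic over aposymbiotic, with bars from the lower to the upper quartile over genes, for 5 classes of coding length within 4 ranges of mean CPM. The class of 10000 nt or more lies at -0.01 between 100 and 300 CPM and at 0.11 and 0.15 in the ranges above.

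Among the giant genes, 33 had a partner of like exon structure. Likeness was measured as the share of exons of equal length in the same order, among the 109 giant genes of at least 10 exons. Over the 5886 pairs this share had a median of 3.88%. It was at least 40% in 30 pairs, a minimum set after the shares were seen, and the largest share under it was 28.2%. These pairs join 33 giant genes into 13 groups, and 15 pairs lie on different scaffolds. In 4 pairs every exon was equal. These pairs joined scaffolds 2 and 44 (32 exons), 10 and 15 (84 exons), 14 and 15 (63 exons), and 16 and 18 (82 exons). In 9 pairs the share was at least 90%, and all 9 lie on different scaffolds.

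Such pairs were not limited to giant genes. Among all models of at least 10 exons, 250 pairs had the same exon lengths throughout, 51 of them on scaffolds 14 and 15, 43 on scaffolds 10 and 15, 25 on scaffolds 4 and 17 and 17 on scaffolds 16 and 18. Exon lengths were compared and sequences were not. Whether such a pair is a pair of genes or 1 locus assembled more than once cannot be told apart here, so a locus may be counted more than once among the 119. Counting did not admit reads that align in several places, so the counts of pairs that share sequence are uncertain.

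**Figure D5:**
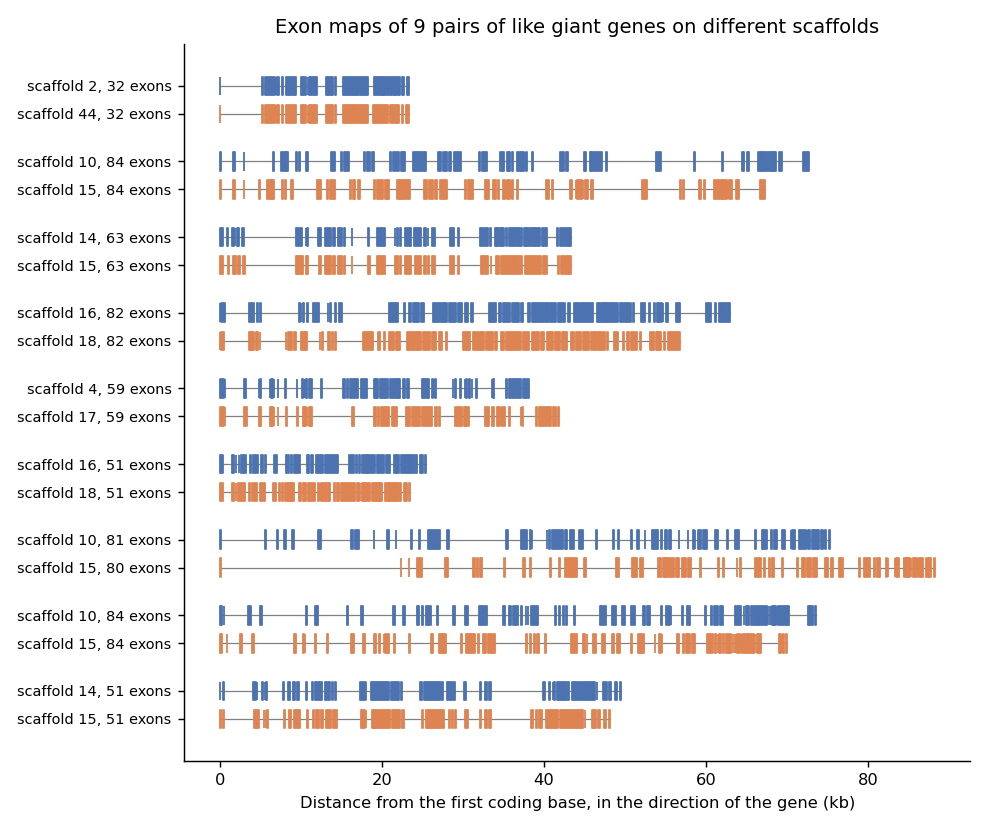
Exon maps of the 9 pairs of giant genes on different scaffolds with at least 90% of exons equal in order, drawn from the first coding base in kb, with exons as blocks and introns as lines. Within a pair the exons follow the same order while the introns differ in length, for example in the 84-exon pair on scaffolds 10 and 15.

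Most of the closest pairs lay near each other in level and ratio, and pairs of unlike giant genes were not compared in this. In 7 of the 9 pairs of at least 90% likeness the higher level per kb exceeded the lower by 25% at most, and in 8 of the 9 the counting interval of the difference in log2 ratio included 0. The exception to the latter was the 51-exon pair of scaffolds 16 and 18, at 55.9 and 64.3 CPM per kb and log2 ratios of 0.16 and 0.07. In the 84-exon pair, the gene of scaffold 10 (6871608 to 6944254) counted 261 without and 249 with algae and that of scaffold 15 (7376803 to 7444061) 303 and 255, with log2 ratios of -0.36 and -0.54. In the 82-exon pair of 23880 nt, the gene of scaffold 16 (8690573 to 8753566) had 1059 and 1166 and that of scaffold 18 (1140634 to 1197365) 1332 and 1374, with log2 ratios of -0.15 and -0.25. The widest gap in level, 2.81-fold per kb, was in the pair on scaffolds 2 and 44, which has few counts (102 and 150 against 31 and 60). An interval that includes 0 does not show that both genes behave alike, and in the pair on scaffolds 2 and 44 it ran from -0.33 to 1.11.

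Of the 21 pairs from 40% up to 90%, the interval of the difference in log2 ratio left out 0 in 16. These pairs reuse genes, and 8 of the 16 came from the 8 pairs within 1 group of 5 genes on scaffolds 10 and 15, while the other groups gave 8 of 13. Levels per kb differed by 1.06-fold to 13.9-fold. The widest gap was on scaffold 4, between the nested gene at 5.21 CPM per kb and its like gene from 14150173 at 72.2 CPM per kb. On scaffold 7, where 3 genes have 38 exons each (starting at 17903511, 17940863 and 18013135), the first and second had 98.5 and 104 CPM per kb as means of both libraries and the last was 6.51-fold below the second. Genes with a like partner are 33 of the 119, and they made up 7 of the 10 lower giant genes (by 20% or more) and 2 of the 18 higher ones (by 25% or more). Of all tested genes 4.96% were lower and 5.74% higher. The 7 are not separate cases, since they include the 3 like genes of scaffold 4 and both genes of the 84-exon pair on scaffolds 10 and 15 with all exons equal. The part of uncertain counts and of loci present more than once in these numbers was not tested.

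In 5 places 2 giant genes were next to each other with no model between them, 4 of these on the same strand. Those on scaffold 13 (8625388 to 8645327 and 8646804 to 8666271) lie 1476 bp apart on the plus strand and share no exon lengths in order. The first had 352 aposymbiotic and 572 symbiotic counts and the second 365 and 593, so both log2 ratios were 0.41, with levels of 6.93 and 6.09 CPM per kb. The values of this pair are almost equal in both libraries.

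Neighbours on scaffold 3 went opposite ways. The 2-exon gene (15282772 to 15298827, plus strand) stood at -0.35, while a 50-exon gene 3020 bp away on the minus strand (15301848 to 15333296, 1615 and 2612 counts) stood at 0.40 (0.31 to 0.49). Their log2 ratios differed by 0.75 (0.66 to 0.85). On scaffold 15, the 78-exon gene at -0.93 adjoins an 84-exon gene (9571812 to 9641826, 1455 and 1569 counts) at -0.18, although 77.4% of exons are equal in order. On scaffold 2, the 103-exon gene at 0.52 adjoins a 50-exon gene (16564200 to 16601266, 3306 and 4247 counts) at 0.07. On scaffold 7, the adjoining 38-exon genes stood at 0.28 and 0.15. Position next to another giant gene thus went with close ratios in some pairs and not in others.

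At the length minimum, the genes just inside had 10038, 10077 and 10095 nt and log2 ratios of 0.11, 0.03 and 0.58, the last from 43 and 79 counts. Those just outside had 9894, 9861 and 9816 nt and log2 ratios of 0.36, 0.49 and 0.20. Of the 453 models from 5000 nt up to the minimum, 96.9% passed the CPM minimum, against 46.7% of all models.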

How the data were processed

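The authors deposited counts per gene model from featureCounts (Subread 2.1.1). Per the file headers, it counted read pairs on exons for each gene without regard to strand, on a BRAKER3 annotation, and left out reads with several alignments or on several models. The submitters' processing notes also list deepTools 3.5.6, STAR 2.7.11b and fastp 1.1.0. The build of the genome was not given in the sources used here. Positions and lengths come from the same deposited table. Lengths are multiples of 3 in 98.4% of models and are called coding lengths.

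From the deposited counts, CPM was computed after TMM scaling in edgeR 4.0.16 (R 4.3.3), with factors of 1.01 and 0.991. The log2 ratio used a prior count of 0.5, with exact 95% Clopper-Pearson intervals given the sum of both counts. Genes counted as past a limit (2-fold, or 25% up and 20% down) also had an interval that left out equality. Total counts per library were 5533508 and 6905650. Exon entries of a gene were merged where they overlap. The procedure was tested on simulated data that held counting error only, with no variation between animals or libraries. Of 100 simulated 3-fold changes 99% were called at 2-fold, and of 100 1.5-fold changes 78% at the smaller limits. This says nothing on variation between animals or libraries. Other tools were scipy 1.17.1, numpy 2.4.6, matplotlib 3.10.9, pandas 2.3.3 and Python 3.11.15.

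Genes given by position were the 8 of highest level per kb, the 5 longest, the 5 of most and up to 5 of fewest exons, the 8 first in each direction by the interval bound nearest equality at a mean CPM of at least 5, those around the length minimum and adjoining pairs. Genes named for like structure or recurring exon lengths, and the model beside the scaffold 6 gene, were chosen after their values were seen. The members, lists and classes were chosen with earlier results of these data known. Alternatives were other scalings, prior count, intervals, length and CPM minimums, and leaving out genes.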

Additional observations from a re-analysis of the deposited data

How the results depend on the processing

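There were 13 alternatives planned and 3 added after seeing the data. None that gave a median of the giant genes reversed its direction. Single genes were checked for 36 giant genes under 5 alternatives, and none of those called at either limit changed sign. For the scalings this was fixed in advance. The log2 ratio of scaled library sizes ran only from 0.291 to 0.320 over them, and a scaling moves all genes alike. The median log2 ratio of the giant genes was 0.07 with total counts alone and at most 0.11, at a length minimum of 15000 nt, and the median of all tested genes moved from -0.01 to 0.01 over the scalings. With total counts alone, 12 giant genes were higher by at least 25%, against 18, and 10 lower by at least 20%, and 60.5% lay above 0. With a length minimum of 8000 nt, 30 of 187 genes were higher, and the genes took 9.84% of aposymbiotic and 10.6% of symbiotic counts. At 12000 nt, 9 of 74 were higher, 6 lower and 0 at least 2-fold lower, with 5.78% and 6.31% of counts. At 15000 nt, 6 of 31 were higher, 0 lower and 0 at least 2-fold lower, with 3.54% and 4.01% of counts. Of all tested genes 5.74% were higher and 4.96% lower. Each of these minimums admits a different number of genes, so the counts move with the size of the set. What else lies behind the changes was not tested. With the 20 largest genes left out of the counts, the shares were 5.16% and 5.25%. Among the added alternatives, leaving out genes of like exon structure left 86 giant genes, with 1 at least 2-fold lower and 3 lower by at least 20%. Leaving out the 4 giant genes of most counts gave shares of 4.61% and 4.66%. Of 180 values of single genes under 5 alternatives each, 173 stayed within their counting interval and 7 moved past it. Those that moved all belonged to the 4 giant genes of most counts, whose counting intervals are narrow. The sign changed in 1 of the 180: the gene of scaffold 2 from 15011096, called at neither limit, went from 0.02 to -0.0049 with total counts alone. No paired analysis was possible because each condition has 1 library. Counting intervals do not cover differences between animals, cultures or library preparations, and log2 ratios of genes with few counts, such as that on scaffold 44, are known only within wide limits.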
